A study of Mus musculus with 9 samples.

Results

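The mouse kappa light-chain variable genes (Igkv) were followed across marrow stromal cell libraries of 3 groups. Members were chosen by symbol, Igkv followed by a number, and selected on an FPKM above 0 in at least 1 library of the deposited table. This selection gave 112 of 30579 genes, 93 annotated as V genes and 19 as V pseudogenes. FPKM is a count of sequenced fragments scaled to transcript length and library size. The same FPKM values are described here, so a value above 0 is not a finding.

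Mesenchymal stromal cells, the support cells of the marrow, were isolated by flow sorting from mouse long bones, with 3 libraries in each of 3 groups. The libraries labelled aged Thbs1 knockout came from mice aged 18 months, the aged controls from mice aged 18 months, and the young controls from mice aged 3 months. All mice had received a VE-cadherin antibody behind the eye 10 minutes before they were killed, and each SMART-Seq v4 library started from 2 ng of RNA. The sort gates, the kind of knockout allele and the number of mice behind a library are not given in the sources read. All p-values therefore reflect library-to-library spread, which may be technical.

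A kappa light chain is made when a B-lineage cell joins a V gene to a J segment next to the constant gene Igkc. A B cell and its descendants usually express a single productive light-chain join, and plasma cells, which lodge in the marrow, transcribe it at very high levels. V genes that lie in the same orientation as Igkc join by deletion of the DNA between them, and those in the opposite orientation join by inversion. Stromal cells are not known to rearrange these genes.

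Igkv15-103 was the most used member in all 3 aged controls, at 57.6%, 15.8% and 70.7% of the Igkv FPKM, and other genes led in the labelled-knockout libraries. The germline V exon of Igkv15-103 is shown whole because it carries the highest values among the members. It lies at chr6:68437628-68437925 on the forward strand of GRCm38, from the GENCODE M21 transcripts, and the capitals mark the germline V part of the third complementarity-determining region, after the conserved cysteine codon.

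Igkv15-103: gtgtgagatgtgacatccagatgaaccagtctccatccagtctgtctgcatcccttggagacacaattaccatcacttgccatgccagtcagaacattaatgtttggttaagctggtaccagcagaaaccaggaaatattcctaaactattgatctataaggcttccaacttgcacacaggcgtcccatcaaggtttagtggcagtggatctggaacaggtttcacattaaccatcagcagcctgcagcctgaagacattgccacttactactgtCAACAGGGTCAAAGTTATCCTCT

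The last 60 bases of the V exon are shown next, 5′ to 3′ on each gene's own strand with the same meaning of capitals, for the genes that led another library, some of the second genes and relatives within their families. They are reference sequences, not sequences read from these libraries. Igkv9-120 (chr6:68050397-68050456, forward strand) led labelled-knockout replicate 1, Igkv14-126 (chr6:67896583-67896642, forward) led replicate 2, and Igkv10-96 (chr6:68631963-68632022, reverse) led replicate 3 and young control 1. Igkv1-122 (chr6:68017429-68017488, forward) led young control 2. Igkv6-20 (chr6:70335841-70335900, reverse) was the second gene of labelled-knockout replicate 3, and Igkv4-68 (chr6:69304834-69304893, reverse) the second gene of aged control 1.
Igkv9-120: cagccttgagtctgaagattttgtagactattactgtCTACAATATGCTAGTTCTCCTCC
Igkv9-124: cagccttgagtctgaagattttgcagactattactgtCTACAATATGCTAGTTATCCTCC
Igkv14-126: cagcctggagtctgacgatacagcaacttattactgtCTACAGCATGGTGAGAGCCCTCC
Igkv10-96: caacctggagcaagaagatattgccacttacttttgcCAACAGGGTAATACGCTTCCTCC
Igkv10-94: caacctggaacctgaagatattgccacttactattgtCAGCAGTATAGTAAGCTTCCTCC
Igkv10-95: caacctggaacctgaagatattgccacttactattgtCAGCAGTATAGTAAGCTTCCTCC
Igkv1-122: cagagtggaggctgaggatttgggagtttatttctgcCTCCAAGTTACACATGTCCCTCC
Igkv1-117: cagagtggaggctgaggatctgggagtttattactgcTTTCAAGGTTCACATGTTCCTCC
Igkv6-20: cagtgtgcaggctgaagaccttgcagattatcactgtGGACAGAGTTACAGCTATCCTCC
Igkv4-68: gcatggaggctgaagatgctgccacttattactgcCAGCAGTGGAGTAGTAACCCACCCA

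The family relatives Igkv9-124 (chr6:67942074-67942133, reverse), Igkv10-94 (chr6:68704508-68704567, reverse), Igkv10-95 (chr6:68680789-68680848, forward) and Igkv1-117 (chr6:68121768-68121827, forward) show how alike single members are. Igkv10-94 and Igkv10-95 differ by 0 of these 60 bases, Igkv9-120 and Igkv9-124 by 2, and Igkv1-117 and Igkv1-122 by 7. Over the whole V exon, 50 of 112 members have another Igkv gene at 95% identity or more, and 88 share at least 1 stretch of 50 bases with another annotated transcript. Igkv15-103 shares no such stretch, and its closest relative, Igkv15-97, is 80.99% identical. Igkv14-126, Igkv16-104 and Igkv5-39 share none either, so reads of these 4 genes are less open to mixing than those of Igkv4-68, Igkv9-120 and Igkv10-96. The latter share 48.7%, 25.3% and 32.6% of their stretches of 50 bases.

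The labels and the libraries were checked first. Estimated depth, from the steps between low FPKM values, was 18.16 to 26.15 M reads (M, mega) in labelled-knockout libraries, 20.83 to 27.65 M in aged controls and 17.73 to 19.59 M in young controls. Thbs1 was at 24.28, 44.55 and 37.05 FPKM in the labelled-knockout libraries, against 35.56, 41.89 and 36.85 FPKM in aged controls (exact two-sided permutation p = 0.9, where the smallest possible is 0.1). Thbs1 RNA was thus not seen to be reduced, and the group is named by its label throughout. Labelled-knockout replicate 2 stood apart, with correlations of 0.738 to 0.811 with every other library across genes. The defining stromal gene Cxcl12 was lowest at 4226, 2873 and 5190 FPKM in labelled-knockout libraries, aged controls and young controls, and the endothelial gene Cdh5 was at most 1.99, 0.03 and 0.08 FPKM in these groups.

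The summed level of the 112 genes spanned more than any difference in depth. The Igkv sum was 851.2, 2704 and 9495 FPKM in the labelled-knockout libraries, 82389, 18591 and 158429 FPKM in the aged controls, and 21.84, 37.09 and 1049 FPKM in the young controls. The means were 4350 ± 4551, 86470 ± 70008 and 369 ± 589 FPKM in labelled-knockout libraries, aged controls and young controls (SD, n = 3 each). All 3 aged controls lay above every other library, while labelled-knockout replicate 1 lay below young control 3, so the ranges of labelled-knockout libraries and young controls overlapped. The sum is a description of genes chosen for being above 0 and was not tested. Fewer cells of a type and less RNA per cell cannot be told apart in such bulk libraries.

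In estimated reads, the members held 7850, 17721 and 75401 reads in labelled-knockout libraries, 812537, 192056 and 1228544 in aged controls, and 156, 249 and 7573 in young controls. These counts set how firmly usage can be stated. The shares of young controls 1 and 2 rest on far fewer reads than those of any other library. The members held 3.13%, 0.695% and 5.90% of all reads in aged controls. If library size counts all reads, this share takes from the FPKM of other genes there, and least in aged control 2.

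**Figure D1:**
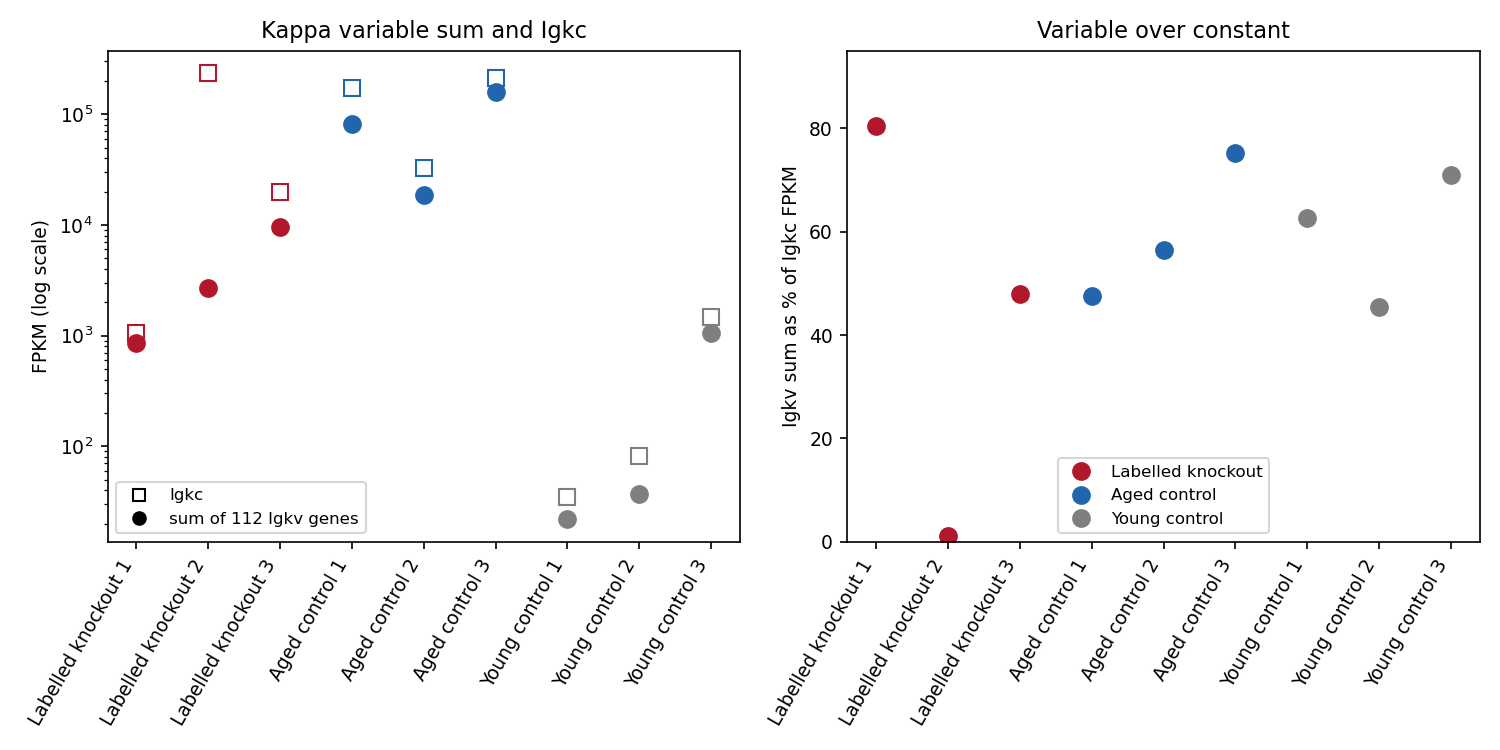
Left, FPKM (log scale) of the sum of the 112 Igkv genes (filled circles) and of Igkc (open squares) in each library; right, the Igkv sum as a percent of Igkc FPKM. Labelled-knockout replicate 2 has Igkc at the level of the aged controls, 235333 FPKM, with an Igkv sum of 2704 FPKM, or 1.15%, where the other 8 libraries lie between 45.4% and 80.5%.

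Igkc, the constant region that every kappa chain shares, was at 1058, 235333 and 19821 FPKM in labelled-knockout libraries, 173227, 32970 and 210878 FPKM in aged controls, and 34.83, 81.63 and 1477 FPKM in young controls. The Igkv sum was 80.5%, 1.15% and 47.9% of Igkc in labelled-knockout libraries, 47.6%, 56.4% and 75.1% in aged controls, and 62.7%, 45.4% and 71.0% in young controls. In 8 libraries the V and C levels thus moved together, and labelled-knockout replicate 2 carried Igkc with few reads over the annotated V genes. The J segments showed the same gap in that library. Of Igkj1 to Igkj5, Igkj2 was at 35.77 FPKM and the others were listed at 0, so that the J sum was 0.0152% of Igkc. In the other labelled-knockout libraries it was 0.549% and 0.341%, and in the aged controls 0.265%, 0.292% and 0.478%.

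The other immunoglobulin chains of labelled-knockout replicate 2 give a comparison. The summed lambda variable genes were 113.7% of the summed lambda constant genes there, against 327.2% and 378.7% in the other labelled-knockout libraries and 112.2% to 163.0% in the aged controls. The summed heavy-chain variable genes were 0.439% of the heavy constant genes, against 97.7% and 7.92% in the other labelled-knockout libraries and 10.4% to 95.1% in the aged controls. The kappa and heavy ratios of this library were thus below those of all the other labelled-knockout and aged control libraries, while its lambda ratio was below its own group but within the aged controls. The cause was not tested.

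Usage within the Igkv sum was uneven in every library. Igkv15-103 (ENSMUSG00000076523.2, chr6:68437440-68437925 of GRCm38) stood at 0, 1.17 and 283.37 FPKM in labelled-knockout libraries, 47452, 2933 and 111975 FPKM in aged controls, and 1.09, 0.15 and 674.33 FPKM in young controls. The lowest aged control was above the highest library of both other groups. Its share of the Igkv sum was 0%, 0.0433% and 2.98% in labelled-knockout libraries, 57.6%, 15.8% and 70.7% in aged controls, and 4.99%, 0.404% and 64.3% in young controls. The high share was therefore not particular to the aged controls, since young control 3 had a share as large at a far lower level. By estimated reads this was 4954 of 7573 reads in young control 3, or 65.4% with a 95% Wilson interval of 64.3% to 66.5%.

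Despite these levels Igkv15-103 did not pass in the fit across all genes. On the log2(FPKM + 1) scale the difference was −11.52 (SE 2.76, limma adjusted p = 0.0570) between labelled-knockout libraries and aged controls, and 11.05 (SE 2.76, limma adjusted p = 0.0583) between aged and young controls. Its spread was wide in the labelled-knockout libraries and young controls, and without labelled-knockout replicate 2 it passed in both comparisons (adjusted p = 0.0480 and 0.0241). Without labelled-knockout replicate 3 it passed between aged and young controls (adjusted p = 0.0460). Between labelled-knockout libraries and aged controls it stayed uncalled in 16 of 19 alternatives (limma adjusted p up to 0.269). Between aged and young controls it stayed uncalled in 14 of 19 (limma adjusted p up to 0.286).

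**Figure D2:**
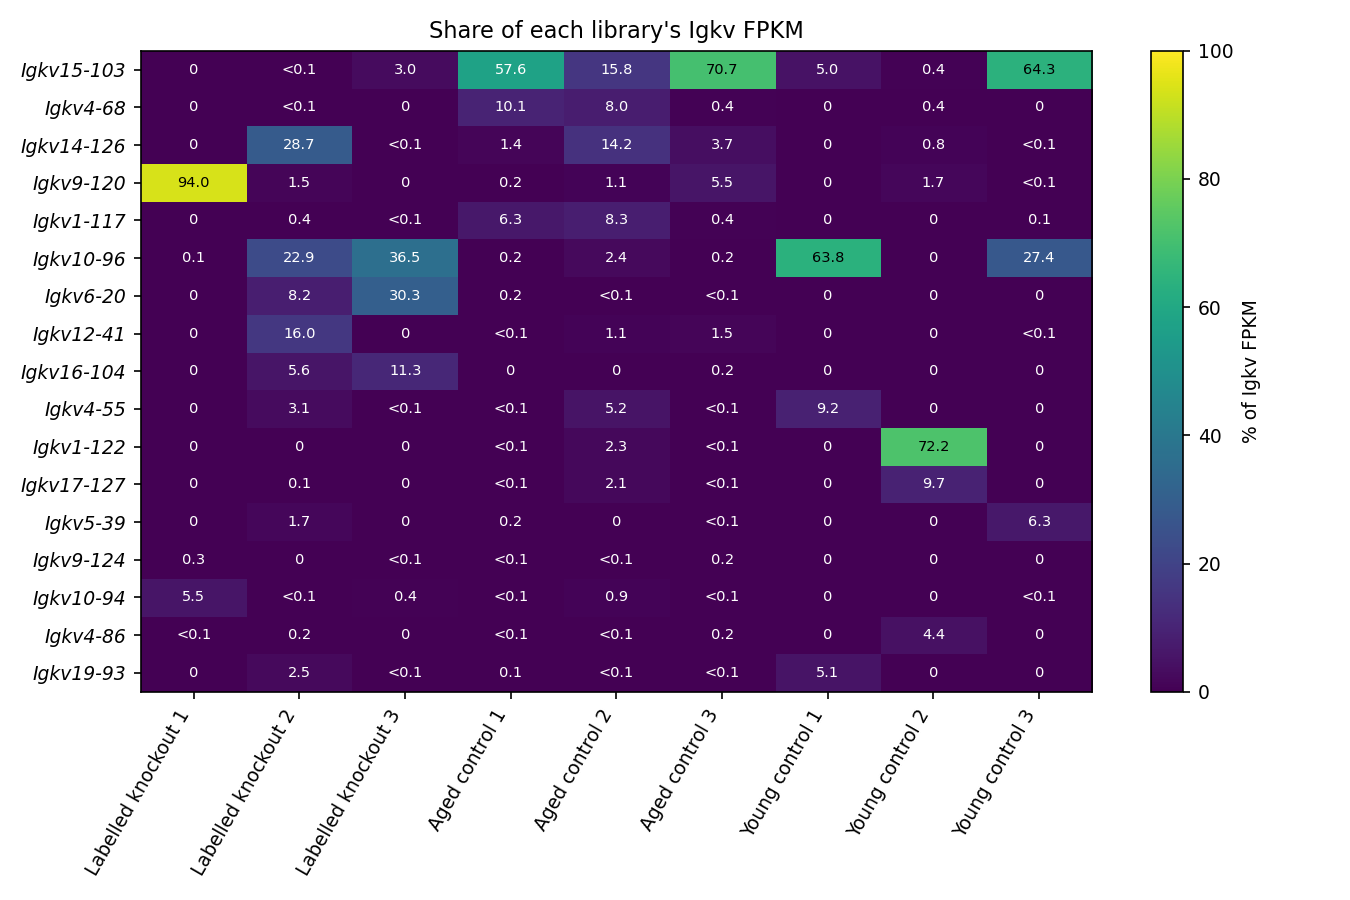
Share of each library's Igkv FPKM (percent, colour and number) for every gene among the 3 most used of any library, with genes ordered by mean FPKM and libraries in columns. Igkv15-103 leads the 3 aged controls (57.6%, 15.8% and 70.7%) and young control 3 (64.3%), and 3 different genes lead the 3 labelled-knockout libraries.

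Each labelled-knockout library had its own leading gene. Igkv9-120 (ENSMUSG00000094872.1) was at 800.22, 40.00 and 0 FPKM in labelled-knockout libraries, 138.19, 198.20 and 8701 FPKM in aged controls, and 0, 0.64 and 0.29 FPKM in young controls. It made up 94.0% of the Igkv sum of labelled-knockout replicate 1, and Igkv10-94 made up a further 5.52%, with 46.96 FPKM. A single gene thus accounted for nearly all Igkv signal of that library, 7387 of 7850 estimated reads (95% Wilson interval 93.6% to 94.6%).

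Igkv14-126 (ENSMUSG00000094345.2) was at 0, 776.21 and 0.78 FPKM in labelled-knockout libraries, 1181, 2637 and 5794 FPKM in aged controls, and 0, 0.31 and 0.86 FPKM in young controls. It was high in all 3 aged controls and in a single labelled-knockout library, where it led with 28.7%. That library, replicate 2, was broader than the other 2 of its group, with Igkv10-96 at 22.9%, Igkv12-41 at 16.0%, Igkv6-20 at 8.21% and Igkv16-104 at 5.63%.

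Igkv10-96 (ENSMUSG00000094420.2) was at 1.17, 619.49 and 3465 FPKM in labelled-knockout libraries, 124.72, 438.94 and 328.17 FPKM in aged controls, and 13.93, 0 and 287.67 FPKM in young controls. Here the groups overlapped fully, and the gene's highest value was in labelled-knockout replicate 3. The log2 difference between labelled-knockout libraries and aged controls was −0.65 (SE 2.65, limma adjusted p = 0.918), and it was 2.48 without labelled-knockout replicate 1 and −2.84 without replicate 3, so no direction is given for this gene.

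Labelled-knockout replicates 2 and 3, led by different genes, had Igkv10-96, Igkv6-20 and Igkv16-104 in common among their 5 most used genes. Igkv6-20 was at 222.10 and 2874 FPKM in them and at 0 in replicate 1, against 169.13, 0.19 and 123.29 FPKM in aged controls and 0 in all 3 young controls. Igkv16-104 was at 152.32 and 1069 FPKM in the same 2 libraries and at 0 in replicate 1, against 0, 0 and 293.89 FPKM in aged controls and 0 in all young controls. The usage that both libraries had in common, the sum over members of the smaller of the 2 shares, was 39.9%. It was 1.69% and 0.560% between replicate 1 and replicates 2 and 3.

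The same measure was 43.0%, 66.1% and 29.7% for the 3 pairs of aged controls and 2.02%, 32.4% and 0.648% for the 3 pairs of young controls. Between groups it reached 65.2%, for aged control 3 and young control 3, both led by Igkv15-103. Libraries of the same group were thus not always more alike in usage than libraries of different groups. The number of genes shared among the 10 most used was 3 for labelled-knockout replicates 2 and 3, 3 to 5 for pairs of aged controls and 1 or 2 for pairs of young controls.

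In young controls 1 and 2 the leading genes were low in level. Igkv10-96 held 98 of 156 estimated reads in young control 1 (62.8%, 95% Wilson interval 55.0% to 70.0%). Igkv1-122 was listed at 0 in all 3 labelled-knockout libraries, and was at 0.70, 421.54 and 0.50 FPKM in aged controls and at 0, 26.77 and 0 FPKM in young controls. In young control 2 it held 182 of 249 reads (73.1%, interval 67.3% to 78.2%). The intervals cover counting error only, since reads were not marked by molecule.

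The number of members in use was higher in the aged controls by a plain count. Members above 0 numbered 7, 37 and 30 in labelled-knockout libraries, 81, 74 and 99 in aged controls, and 11, 18 and 21 in young controls. The means were 24.7 ± 15.7, 84.7 ± 12.9 and 16.7 ± 5.13 genes in the same order of groups (SD, n = 3 each). A plain count grows with the number of reads, and at 3 reads or more it was 4, 32 and 21 in labelled-knockout libraries, 76, 61 and 84 in aged controls, and 8, 8 and 13 in young controls. Among the 24 members that share no stretch of 50 bases with another transcript, 1, 8 and 7 were above 0 in labelled-knockout libraries, 15, 12 and 19 in aged controls, and 5, 5 and 7 in young controls.

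At an equal number of reads the groups came closer. In 100 reads drawn from the members of each library, the expected number of genes was 2.42, 15.1 and 8.41 in labelled-knockout libraries, 14.7, 23.7 and 14.1 in aged controls, and 10.4, 12.1 and 4.61 in young controls. Labelled-knockout replicate 2 lay above 2 of the 3 aged controls on this measure, so the groups overlapped. All 3 aged controls were still above all 3 young controls.

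The inverse Simpson index gives the number of equally used genes that would produce the same concentration. It was 1.13, 5.76 and 3.98 in labelled-knockout libraries, 2.83, 13.2 and 1.97 in aged controls, and 2.35, 1.87 and 2.03 in young controls. Aged control 2 stood out as broad, with 24 genes at 1% or more, and aged control 3 was among the most concentrated despite having the most genes above 0. With the most used gene of each library left out of that library, an alternative chosen after the data were seen, the index was 1.18, 5.58 and 3.42 in labelled-knockout libraries, 8.50, 14.0 and 10.8 in aged controls, and 6.89, 5.89 and 1.61 in young controls. Leaving out that gene, Igkv15-103 in each aged control, moved the index most in aged controls 1 and 3 and in young controls 1 and 2.

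**Figure D3:**
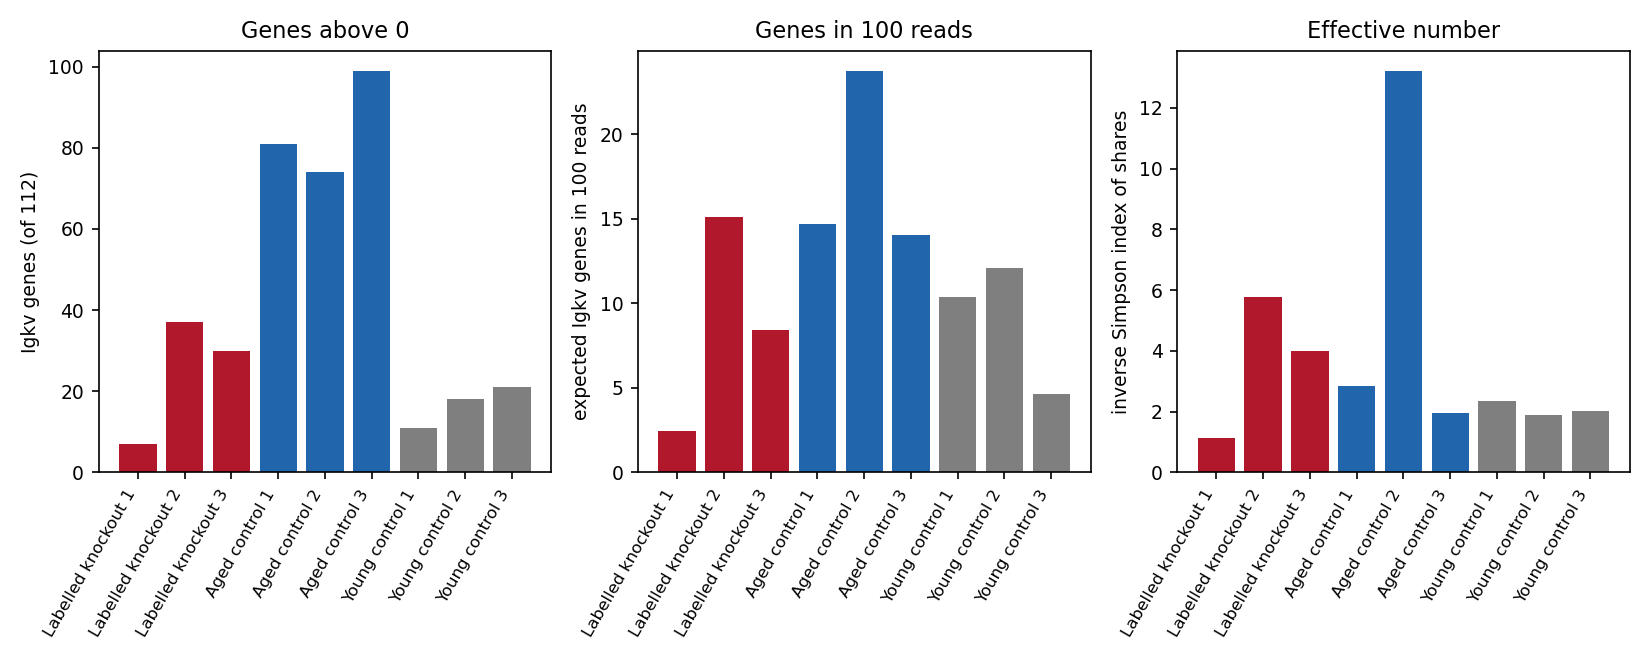
Breadth of Igkv usage per library: members above 0 (left), expected members in 100 reads (middle) and inverse Simpson index of FPKM shares (right), labelled-knockout, aged control and young control libraries from left to right in each. Members above 0 number 7 to 37 in labelled-knockout libraries, 74 to 99 in aged controls and 11 to 21 in young controls, while the groups overlap in the inverse Simpson index.

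Members were seldom shared by all groups. There were 27 members above 0 in at least 1 library of each group, 47 above 0 in aged controls alone, 22 in labelled-knockout libraries and aged controls, and 13 in aged and young controls. A further 1 was above 0 in labelled-knockout libraries alone and 2 in young controls alone. Within groups, 2 members were above 0 in all 3 labelled-knockout libraries, 59 in all 3 aged controls and 1 in all 3 young controls, and 0 members were above 0 in all 9 libraries. Estimated depth was 17.73 to 27.65 M reads over all libraries. The cause of the fewer reads in members outside the aged controls was not tested. A member not seen there may still be present at a level below 1 read.

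At a share of 1% or more, 44 members were used in at least 1 library, and 21 of these in a single library. Igkv15-103 reached 1% in 6 libraries, Igkv1-110, Igkv9-120 and Igkv10-96 in 5 each, Igkv14-126 in 4, and Igkv12-41, Igkv4-55 and Igkv8-30 in 3 each. These 8 were the members at 1% or more in at least 3 libraries.

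Single genes were compared between groups in a fit across all 11988 genes with at least 1 FPKM in at least 3 libraries. Of the 112 members 40 entered it, and 9 of these did so through the aged controls alone, while 6 of the 40 would have entered without the aged controls. Members that entered only because of the group where they are high had to differ, so their count is not support. The 72 others were too rarely high, among them Igkv6-23 at 5564 FPKM in aged control 3. No direction is read from how many members passed.

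Between labelled-knockout libraries and aged controls, 11 members were called lower and 0 higher (limma, adjusted p under 0.05), where 1.96% of all tested genes were called lower. In 18 members every labelled-knockout library lay below every aged control, which held for 6.54% of all tested genes. The 9 members that entered through the aged controls alone had to be among these 18, so this count is not support. The count of lower calls was 21 without labelled-knockout replicate 2, 4, 3 and 3 without aged controls 1, 2 and 3, and 7 without young control 1 or 3.

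Igkv4-68, a V gene of the largest family, was at 0, 1.39 and 0 FPKM in labelled-knockout libraries, 8339, 1489 and 687.59 FPKM in aged controls, and 0, 0.14 and 0 FPKM in young controls. The value in young control 2 corresponds to a single read, and every aged control lay far above the other libraries. It was lower in labelled-knockout libraries than in aged controls by −10.58 on the log2(FPKM + 1) scale (SE 0.77, limma adjusted p = 0.000569).

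Igkv1-117 was at 0, 9.52 and 2.42 FPKM in labelled-knockout libraries, 5219, 1536 and 710.98 FPKM in aged controls, and 0, 0 and 1.52 FPKM in young controls. Its difference between labelled-knockout libraries and aged controls was −9.08 on the log2(FPKM + 1) scale (SE 0.91, limma adjusted p = 0.00274). Igkv2-109, at 0, 0 and 0.12 FPKM in labelled-knockout libraries and 240.57, 146.35 and 43.26 FPKM in aged controls, differed by −6.81 (SE 0.54, limma adjusted p = 0.000723). Both patterns rest on values near or at 0 in labelled-knockout libraries, where the scale understates a change. The fit shares a single spread over the groups, and values near 0 add little to it. In both comparisons with the aged controls, the SE and adjusted p of such genes may thus be too small.

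Igkv6-17 was at 0, 0 and 0.99 FPKM in labelled-knockout libraries and 2779, 307.73 and 214.96 FPKM in aged controls (limma adjusted p = 0.00191). Igkv12-46 was listed at 0 in all 3 labelled-knockout libraries, against 493.25, 351.68 and 45.84 FPKM in aged controls (limma adjusted p = 0.00231). Igkv2-109, Igkv6-17 and Igkv12-46 passed the filter only through the aged controls and were not tested in the fits without an aged control. Their adjusted p-values are thus not support, and their calls are no measure of stability. Igkv4-68 and Igkv1-117 were tested in all 19 alternatives and called in each.

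The other lower calls were less stable. Igkv12-44 (0, 5.75 and 0.12 FPKM in labelled-knockout libraries, 4528, 192.96 and 465.36 FPKM in aged controls) and Igkv3-1 (0 in all labelled-knockout libraries, 1592, 213.42 and 40.92 FPKM in aged controls) kept theirs in each fit without 1 library that tested them. In a fit of only the compared groups both lost theirs (adjusted p = 0.0876). Igkv4-74 lost its call without labelled-knockout replicate 1 or 3 or young control 1 or 3 (adjusted p 0.0514 to 0.0632). Igkv8-16 lost it in every such fit except that without labelled-knockout replicate 2 (adjusted p 0.0618 to 0.194). Igkv1-135 lost it without any aged or young control (adjusted p 0.0667 to 0.204), and Igkv8-19 without labelled-knockout replicate 1 or 3 or any young control (adjusted p 0.0837 to 0.112). With no filter on low values, and in a fit of only the compared groups, Igkv4-74, Igkv8-16, Igkv1-135 and Igkv8-19 lost theirs too (adjusted p 0.0612 to 0.1105 and 0.119 to 0.167). Igkv3-1, Igkv4-74 and Igkv8-19 had entered only through the aged controls. Igkv1-135 was at 0, 9.76 and 56.89 FPKM in labelled-knockout libraries and had the least spread of the called genes in aged controls, at 465.42, 346.42 and 420.50 FPKM.

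Between aged and young controls, 15 members were called higher and 0 lower, where 2.57% of all tested genes were called higher. In 26 members every aged control lay above every young control, which held for 7.02% of all tested genes. The same 9 members had to be among these 26, so this count is not support either. The comparison shares the aged controls with the one above, so the calls of both rest on the same 3 libraries. The count was 3, 8 and 7 without aged controls 1, 2 and 3, 6, 7 and 5 without young controls 1, 2 and 3, and 22 without labelled-knockout replicate 2.

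Igkv4-68 was higher in aged than young controls by 10.94 on the log2(FPKM + 1) scale (SE 0.77, limma adjusted p = 0.000543), Igkv1-117 by 10.36 (SE 0.91, adjusted p = 0.00176) and Igkv2-109 by 6.61 (SE 0.54, adjusted p = 0.00140). Igkv6-17 was listed at 0 in all 3 young controls (limma adjusted p = 0.00176), and Igkv12-46 was at 0, 0.60 and 0.27 FPKM there (adjusted p = 0.00309). As above, Igkv2-109, Igkv6-17 and Igkv12-46 entered through the aged controls alone, and Igkv4-68 and Igkv1-117 were called in all 19 alternatives. Igkv12-44 and Igkv3-1, both at 0 in all young controls, were also called, and lost the call without young control 3 (adjusted p = 0.0516 and 0.0620), Igkv3-1 also without young control 1 (adjusted p = 0.0507).

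The other 8 called genes were Igkv1-135, Igkv1-110, Igkv4-74, Igkv8-16, Igkv14-126, Igkv8-19, Igkv15-101 and Igkv4-50. Each lost its call without young control 1, 2 or 3 (adjusted p 0.0537 to 0.166 in those fits). Igkv1-135, Igkv1-110, Igkv8-16 and Igkv14-126 also lost it without aged control 1 (adjusted p 0.0797 to 0.140), and Igkv14-126 without aged control 2 or 3 (0.0733 and 0.0729). Igkv8-19, Igkv15-101 and Igkv4-50 lost it without labelled-knockout replicate 1 or 3 (adjusted p 0.0526 to 0.0678). With no filter on low values these 3 lost it too (adjusted p 0.102 to 0.111), and Igkv15-101 and Igkv4-50 also under each of the 3 other scalings (adjusted p 0.0551 to 0.0632). Over all alternatives that tested them, Igkv15-101 and Igkv4-50 each lost the call in 10 of 15 and Igkv8-19 in 7 of 15. Igkv4-74, Igkv8-16 and Igkv14-126 lost it with no filter as well (adjusted p 0.0524 to 0.0741). Igkv8-19, Igkv15-101, Igkv4-50 and Igkv4-74 also entered the fit only through the aged controls. Igkv1-110, the closest relative of Igkv1-117 at 96.81% identity, was at 0, 31.10 and 457.28 FPKM in labelled-knockout libraries, 3166, 1142 and 5674 FPKM in aged controls, and 0, 0 and 0.13 FPKM in young controls. It was thus high in every aged control and at most 1 read in young controls.

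**Figure D4:**
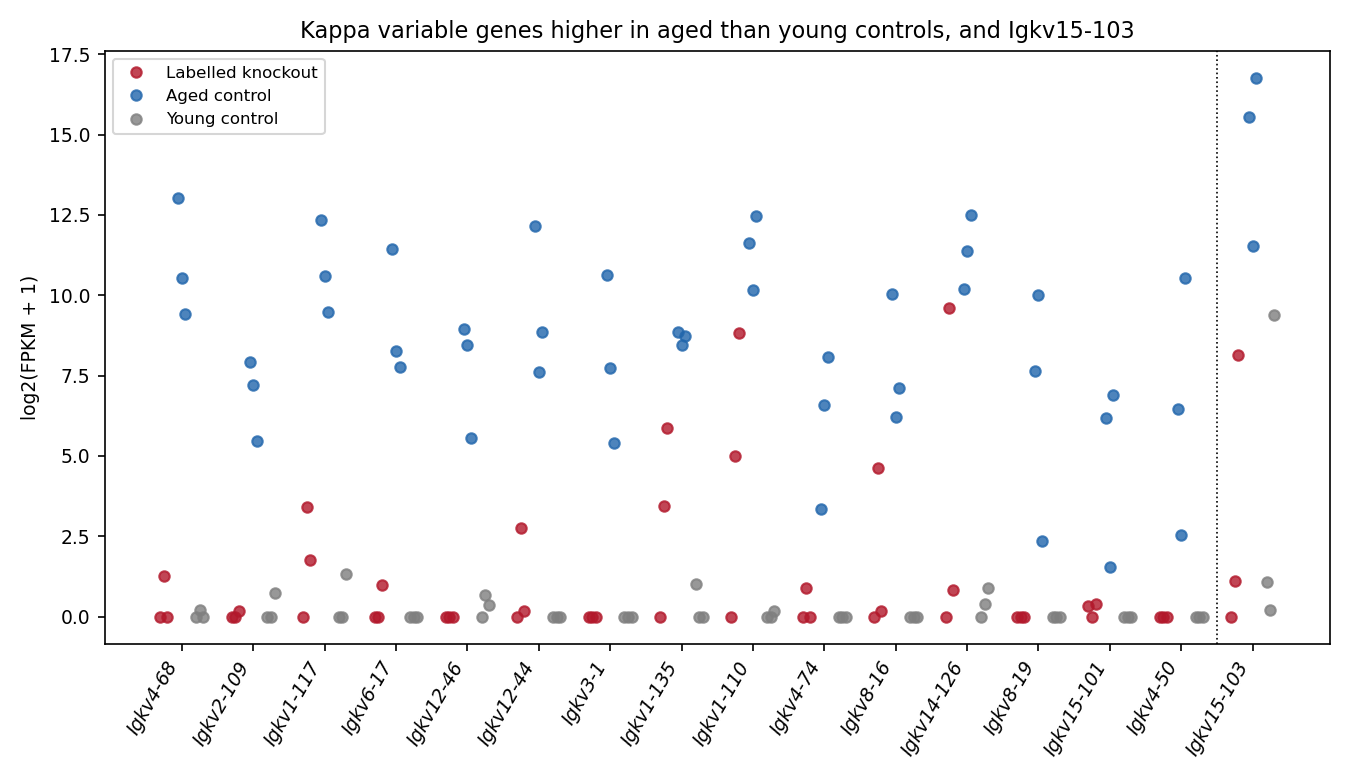
log2(FPKM + 1) in each library for the 15 members called higher in aged than young controls (limma), ordered by p, with Igkv15-103, which was not called, right of the dotted line. Labelled-knockout, aged control and young control libraries run from left to right within a gene, and Igkv15-103 reaches 111975 FPKM in an aged control and 674.33 FPKM in a young control.

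The called genes were spread over the locus and the families. Those higher in aged than young controls comprised 7 on the forward and 8 on the reverse strand in 9 families, and 13 of the 15 share a stretch of 50 bases with another transcript. Igkv14-126 and the pseudogene Igkv15-101 are the exceptions. For the others, part of the reads cannot be assigned to a single gene from sequence alone.

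Between labelled-knockout libraries and young controls, 0 members were called in either direction by limma, where 0.025% of all tested genes were called. The same fit with library weights called 9 members higher, but it called 11.8% of all genes. In Igkv10-94 every labelled-knockout library lay above every young control, but the gene was not called. It was at 46.96, 1.58 and 38.73 FPKM in labelled-knockout libraries and 0, 0 and 0.74 FPKM in young controls, a difference of 3.82 on the log2(FPKM + 1) scale (SE 1.69, limma adjusted p = 0.576).

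The 112 members lie on chromosome 6 between 67555497 and 70704177 (GRCm38), upstream of Igkj1 at 70722562 and Igkc at 70726435 to 70726966, with 41 on the forward and 71 on the reverse strand. Igkv3-1 is the member nearest to Igkj1, 18.4 kb away, and Igkv1-135 is 3112 kb away. Forward-strand members held 94.0%, 38.7% and 22.3% of the Igkv FPKM in labelled-knockout libraries, 79.4%, 62.9% and 88.3% in aged controls, and 17.4%, 88.2% and 65.7% in young controls. The ranges of the 3 groups overlapped.

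The 26 members in the stretch of the locus farthest from Igkj1 held 94.3%, 32.2% and 5.46% in labelled-knockout libraries, 13.4%, 38.7% and 15.5% in aged controls, and 7.42%, 86.1% and 0.332% in young controls. The 33 members nearest to Igkj1 held 0%, 14.0% and 40.5% in labelled-knockout libraries, 10.9%, 13.6% and 7.58% in aged controls, and 8.10%, 3.69% and 1.03% in young controls. Of the 33 nearest members, 15 were above 0 in at least 1 labelled-knockout library, 33 in an aged control and 12 in a young control. Of the 26 farthest, 9, 24 and 10 were above 0 in these groups.

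**Figure D5:**
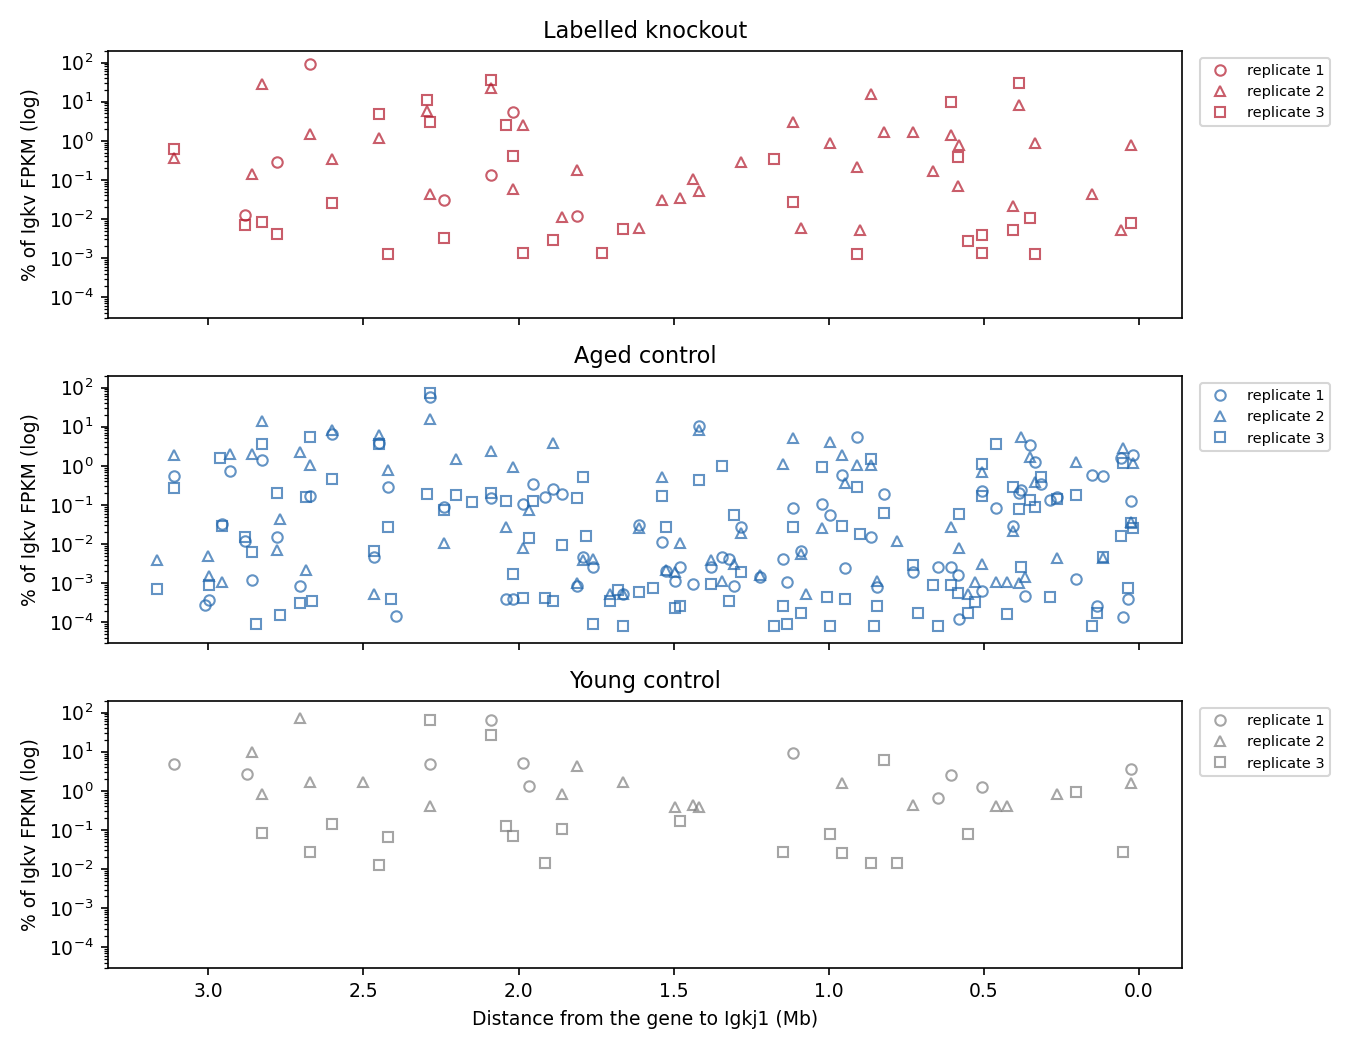
Percent of Igkv FPKM (log scale) of each member above 0 against its distance to Igkj1 in Mb, by group from top to bottom, with a marker shape per replicate. Points of the aged controls cover the whole locus, while labelled-knockout replicate 1 has 7 members above 0.

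Of the 18 families, Igkv4 is the largest with 30 members. It held 0.0117%, 3.79% and 0.386% of the Igkv FPKM in labelled-knockout libraries, 10.9%, 15.02% and 2.94% in aged controls, and 10.6%, 7.31% and 0.207% in young controls. The family of 3 Igkv10 genes held 5.65%, 23.0% and 39.4% in labelled-knockout libraries, 0.152%, 3.33% and 0.336% in aged controls, and 63.8%, 0% and 27.6% in young controls. All 3 labelled-knockout libraries lay above all 3 aged controls in the Igkv10 share, a pattern picked from 18 families and not tested. The levels of Igkv10-96 overlapped, at 1.17, 619.49 and 3465 FPKM in labelled-knockout libraries and 124.72, 438.94 and 328.17 FPKM in aged controls. In labelled-knockout replicate 1 the share came mostly from Igkv10-94, at 46.96 FPKM.

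Pairs of near-identical genes were read together. Igkv9-120 and Igkv9-124, at 95.97% identity, had 7387 and 22 estimated reads in labelled-knockout replicate 1 and 63977 and 2297 reads in aged control 3. Igkv6-20 and Igkv6-29, at 98.32% identity, had 23170 and 303 reads in labelled-knockout replicate 3 and 1646 and 13 reads in aged control 1. The lesser gene was above 0 mostly where the greater one was high, and whether its reads are its own was not tested.

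Pseudogene members took little of the sum. They held 0.0305%, 0.00592% and 0.00326% of the Igkv FPKM in labelled-knockout libraries, 0.127%, 0.0537% and 0.107% in aged controls, and 2.66%, 0.404% and 0% in young controls. The 3 with the highest mean were Igkv15-101, at 72.30, 1.94 and 118.34 FPKM in aged controls, Igkv4-73, at most 44.12 FPKM, and Igkv4-77, at most 24.63 FPKM. Of 38 listed pseudogenes 19 were at 0 everywhere, against 5 of 98 listed V genes.

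At the edge of the selection, Igkv4-53 reached 0.10 FPKM in aged control 2, Igkv2-107 0.12 FPKM in aged control 1 and Igkv4-81 0.13 FPKM in labelled-knockout replicate 3, and each was at 0 elsewhere. In all, 10 members never exceeded 2 estimated reads. Just outside the selection were 24 rows at 0 in all 9 libraries, among them the V genes Igkv1-99, Igkv4-51, Igkv5-37, Igkv8-34 and Igkv11-125. A further 24 annotated Igkv models are not analysed here.

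Other genes of the light-chain pathway were read from lists in the same limma fit, and 0 genes of the lists below were called between labelled-knockout libraries and young controls. Of a set of 16 genes, the kappa constant and joining genes and the lambda constant, joining and variable genes, 14 were tested. Igkj5 was lower in labelled-knockout libraries than in aged controls, and the median log2 difference was −2.83, against 0.07 over all tested genes. Igkc, Igkj1, Igkj2, Igkj5, Iglc3, Iglv1, Iglv3 and Iglj3 were higher in aged than young controls, with a median of 6.34 against −0.28 over all tested genes.

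Of 24 genes for light-chain rearrangement, 15 were tested. Ikzf1, a lymphoid transcription factor, was lower in labelled-knockout libraries than in aged controls. It was at 0.03, 1.69 and 1.04 FPKM in labelled-knockout libraries, 12.91, 13.98 and 3.85 FPKM in aged controls and 0.22, 0.21 and 0.30 FPKM in young controls. Ikzf1 and Irf4 were higher in aged than young controls. The list's median log2 differences were −0.12 and 0.06 in these comparisons, near those of all tested genes. The recombinase genes Rag1 and Rag2 were at most 0.07 FPKM in labelled-knockout libraries, 0.06 in aged controls and 0.05 in young controls.

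Of 7 genes for octamer-dependent and related transcription of immunoglobulin genes, 4 were tested. The coactivator Pou2af1 was at 0.29, 47.24 and 10.42 FPKM in labelled-knockout libraries, 104.56, 21.15 and 131.56 FPKM in aged controls, and 0.32, 0.18 and 0.24 FPKM in young controls. It was called higher in aged than young controls, and 0 genes of this set were called between labelled-knockout libraries and aged controls. The set's median log2 differences were −0.16 between labelled-knockout libraries and aged controls and 0.12 between aged and young controls.

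Markers of plasma cells were read beside the Igkv values. All 12 markers were tested, and 1, Mzb1, was called lower in labelled-knockout libraries than in aged controls, while 6 were called higher in aged than young controls. The median log2 differences were −1.66 and 3.43. Their summed level was 392 to 1668 FPKM in labelled-knockout libraries, 774 to 2373 FPKM in aged controls and 310 to 392 FPKM in young controls. The marker sum and the Igkv sum did not follow 1 order within the labelled-knockout libraries, with 1668 FPKM of markers beside 2704 FPKM of Igkv in replicate 2 and 636 beside 9495 FPKM in replicate 3. The defining gene Jchain, which joins antibody multimers, was at 11.79, 964.01 and 206.08 FPKM in labelled-knockout libraries, 1104, 390.70 and 936.82 FPKM in aged controls, and 2.76, 2.98 and 35.41 FPKM in young controls. Mzb1 was listed at 0 in labelled-knockout replicate 2 and in young controls 1 and 3. Xbp1 and Sdc1, also on the list, were above 69 FPKM in every library.

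Of 12 B cell markers 5 were tested, 0 were called lower in labelled-knockout libraries than in aged controls, and Ms4a1 and Cd79a were higher in aged than young controls. Of 8 pan-leukocyte markers 6 were lower in labelled-knockout libraries than in aged controls and 6 were higher in aged than young controls. The medians of the pan-leukocyte markers were −4.00 and 4.60 on the log2 scale. Their sum was 4.84 to 584 FPKM in labelled-knockout libraries, 524 to 1040 FPKM in aged controls and 5.11 to 15.2 FPKM in young controls. The myeloid gene Mpo, the T and NK cell gene Nkg7 and the endothelial and leukocyte gene Pecam1 came from other marker lists. Each was called lower in labelled-knockout libraries than in aged controls and higher in aged than young controls. Mpo was 1 of 6 neutrophil markers tested. The others, S100a8, S100a9, Ngp, Camp and Ltf, were not called and had negative differences between aged and young controls (median of the list −0.59). Nkg7 and Pecam1 were each the 1 tested gene of their list. Of the macrophage and erythroid markers 0 were called. Of 12 marrow stroma markers, Col1a1 was called higher in labelled-knockout libraries than in aged controls (median of the list 0.58 on the log2 scale). Adipoq, Col1a1, Igf1 and Lpl were called lower in aged than young controls (median −0.94). The part of these cell types in the Igkv results was not tested.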

How the data were processed

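The deposited table gives FPKM per gene for 9 libraries, computed by the authors and rounded to 2 decimals. GRCm38 (mm10), STAR, edgeR and FastQC 0.11.5 are named in the submitters' processing notes, with no role for each. The sources read here do not state the counter, the annotation or how multi-mapping reads were treated. Symbols were matched to GENCODE M21 models (30192 of 30579 genes, all 112 members). Columns were matched to samples by title, and 0 columns were left unmapped.

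Depth was estimated from the steps between low FPKM values times exon length, within 3 to 60 M reads. There, 99.0% to 99.8% of these values came out whole within 0.1. Members' FPKM times length gave estimated reads, and 3 reads came to 0.302 to 0.471 FPKM for a member of typical length. No count model was used, since the values are not counts.

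Usage is a member's FPKM over the sum of the 112. Log2(FPKM + 1) values were fitted in limma 3.58.1 (R 4.3.3), with a trend on mean intensity and 1 fit over all 9 libraries. Genes needed at least 1 FPKM in at least 3 libraries, and Benjamini-Hochberg adjustment ran over 11988 genes with a threshold of 0.05. The procedure was tested on simulated data with equal spread in all groups. Many members do not have such a spread, so that test does not bear on their calls. Identity and shared stretches of 50 bases came from GENCODE M21 transcripts. Other steps ran in Python 3.11.15 with pandas 2.3.3, numpy 2.4.6, matplotlib 3.10.9 and scipy 1.17.1.

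The members, lists and rules were chosen with earlier results of these data known. Named genes were the 3 most used members of each library with an Igkv sum of at least 100 FPKM, the 12 called members with the smallest p per comparison, the 3 highest pseudogenes and the 3 members with the lowest maximum. Igkv1-122, Igkv10-95, Igkv6-29, Igkv6-23, Igkv8-30, the leading genes of young controls 1 and 2 and the last 3 calls were named after their values were seen. The labels state no pairing by replicate number. Correlations of same-numbered deviations were −0.288 to 0.302 and those of other pairs between groups −0.409 to 0.369, so they cannot decide it. Alternatives changed pseudocount, filter, scaling, trend, weights, samples and block, or left out each library. Promoters were not examined.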

Additional observations from a re-analysis of the deposited data

How the results depend on the processing

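The count of members called between aged and young controls was 15 and ranged from 3 to 22 over the fits without 1 library; it was 31 with array weights and 23 in a fit of only the compared groups. Between labelled-knockout libraries and aged controls the count was 11, with 3 to 21 over the fits without 1 library, 34 with array weights (5 higher, 29 lower) and 5 with only the compared groups. Between labelled-knockout libraries and young controls it was 0, and 9 with array weights. With array weights 52.9% and 11.8% of all genes were called between labelled-knockout libraries and aged or young controls, and 61.9% between aged and young controls. With a replicate block the counts were 9, 0 and 11 for labelled-knockout libraries against aged controls, against young controls, and aged against young controls. The labels state no pairing by replicate number. Igkv15-103 passed with the block in both comparisons that hold the aged controls (limma adjusted p = 0.0255 and 0.0269). The other alternatives kept each count within 1.5 times.

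Igkv10-96 reversed between labelled-knockout libraries and aged controls, to 2.84 with array weights and 2.48 without labelled-knockout replicate 1, and it was −2.84 without replicate 3; the cause was not tested. Thbs1 in the same comparison, with alternatives chosen after seeing the data, was −0.33 to 0.09 over the fits without 1 library and passed in none.

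For the number of members above 0, the group means were 8.65, 17.5 and 9.02 in labelled-knockout libraries, aged controls and young controls in 100 reads drawn from each library, and 5.33, 15.3 and 5.67 for members with no shared stretch of 50 bases, both added after the data were seen. At 1 FPKM or more they were 15.3 in labelled-knockout libraries, 57.7 in aged controls and 5.33 in young controls, and at 3 reads or more 9.67 in young controls. Without 1 library they ranged from 18.5 to 33.5, 77.5 to 90 and 14.5 to 19.5. The inverse Simpson index of young controls was 3.34 as the exponential of the Shannon entropy and 1.74 with members under 1 FPKM set to 0, and 1.95 to 2.19 without 1 library. It was 2.56 to 4.87 in labelled-knockout libraries and 2.40 to 8.03 in aged controls without 1 library. The mean share of the most used gene was 32.6% to 65.3%, 36.7% to 64.1% and 64.0% to 68.2%, and the mean Igkv sum 1778 to 6099, 50490 to 120400 and 29.5 to 543 FPKM, in labelled-knockout libraries, aged controls and young controls without 1 library. Shares in young controls 1 and 2 rest on 156 and 249 reads, which limits any statement on usage there.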
